A study of Homo sapiens with 4 samples.

Results

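The guidance cues of the ephrin, semaphorin, Slit and netrin families and their receptors were followed in the MCF10A line, human mammary epithelium that does not form tumours. The members were all genes whose symbol falls into the EPHA, EPHB, EFNA, EFNB, SEMA3 to SEMA7, PLXNA to PLXND, NRP, ROBO, SLIT, NTN, NTNG or UNC5 families in the authors' table of normalized values, without antisense transcripts and pseudogenes. This gave 72 genes of the 20023 symbols in that table, and each was read in the 63856-gene count table by its Ensembl identifier. Of the 72, 2 are members by name only, since UNC50 and UNC5CL are not known as netrin receptors. RNA-seq of ribosomal-RNA-depleted total RNA compared wild type cells with cells stably overexpressing HSF1 (HSF1-pLVX), with 2 libraries of each. HSF1-pLVX cells were transduced with a lentivirus carrying HSF1 and selected with puromycin, and the wild type cells are described without a vector. Both were grown with horse serum, insulin, hydrocortisone, EGF and cholera toxin. No empty-vector library was analysed here, so an effect of HSF1 and one of the vector, its selection or separate culture cannot be told apart. The study's methods call the replicates biological, but neither they nor the labels say how the cultures were separated, and the p-values measure the spread between these libraries only.

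Eph receptors are the largest family of receptor tyrosine kinases. They bind membrane-bound ephrins on neighbouring cells, and both partners can signal, which sorts cells, sets tissue boundaries and governs contact between epithelial cells. Semaphorins signal through plexins, with neuropilins as co-receptors for most secreted class 3 members, and Slits through Robo receptors. Netrins act through DCC, neogenin and the UNC5 receptors. All 4 systems guide axons. They also shape mammary ducts, where Slit and netrin signals help hold the epithelial layers together, and many act on cell adhesion and migration through small GTPases.

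The libraries held between 18688109 and 24184285 counts. HSF1 itself was at 200.4 and 189 CPM (counts per 1000000 counts of the library, TMM-normalized) in wild type and 982 and 999 in HSF1-pLVX cells (log2 fold change 2.35, standard error 0.0999, adjusted p = 1.14e-10 in edgeR's quasi-likelihood test). The introduced and the endogenous transcript are not separated by these counts. All 12 markers of basal mammary epithelium on a list fixed for this work had 10 or more counts in every library, and their summed level was 26786 and 26203 CPM (here per library total) in wild type and 17623 and 17925 in HSF1-pLVX cells. The 10 luminal markers summed to 5401 and 5639.9 against 1308 and 1028, and 7 of the 8 tested fell. The other, ESR1, rose, with 59 and 48 counts in wild type and 263 and 148 in HSF1-pLVX cells (log2 fold change 1.65). PGR, the progesterone receptor, had 0 counts in every library. Markers of other cells that use guidance genes were scarce or uneven. Of 6 neuronal markers 4 had 3 counts or fewer in every library, and the fall of their sum from 4.46 and 4.98 to 0.827 and 0.504 was mainly that of SYT1, while STMN2, NEFL and ELAVL4 were at 0. The 6 endothelial markers summed to 3.02 and 2.09 against 14.1 and 14.7, of which KDR made up most in HSF1-pLVX cells, and PECAM1, CDH5 and VWF had 23 counts or fewer in any library. The 8 fibroblast markers summed to 192 and 226 against 62.1 and 49.0, most of it FAP, which fell. DCN, decorin, had 1 and 3 counts in wild type and 94 and 87 in HSF1-pLVX cells, while COL1A2, COL3A1 and LUM had 3 counts or fewer in every library. The leukocyte markers, mostly CSF1R and with PTPRC at 0, summed to 25.2 and 22.0 against 7.44 and 5.94. The part of these markers in the results was not tested.

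Of the 72 members, 54 passed the filter on low counts and were tested among 15830 genes. At an adjusted p of 0.05, 18 rose in HSF1-pLVX cells and 26 fell, where 32.7% of all tested genes were higher and 33.2% lower, and 65.9% were called in either direction. At least 2-fold changes were found for 9 members upwards and 18 downwards, or 27 of 54, against 28.9% of all tested genes (14.9% upwards and 14.0% downwards). The median log2 fold change of the 54 members was -0.19 and that of all tested genes 0.02. The median size of the change, without its sign, was 0.99 on the log2 scale for the members and 0.58 for all tested genes. Of the 54, 6 met the low-count cutoff in both libraries for wild type only. They were ROBO2, SLIT3, UNC5A, UNC5CL, SEMA3E and NTNG1, of which UNC5A and UNC5CL also met it in HSF1-pLVX replicate 1. Of these 6, 5 were called lower, a direction that passing in this way favours. All 5 were among the 18 members that fell at least 2-fold, so that number too is partly favoured by the filter. Among the 48 that met the cutoff in both libraries of both variants, 18 were higher and 21 lower. The libraries of the variants did not overlap for 49 of the 54 members, against 83.1% of all tested genes. In these bulk samples, fewer cells expressing a gene and less RNA per cell cannot be told apart.

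**Figure D1:**
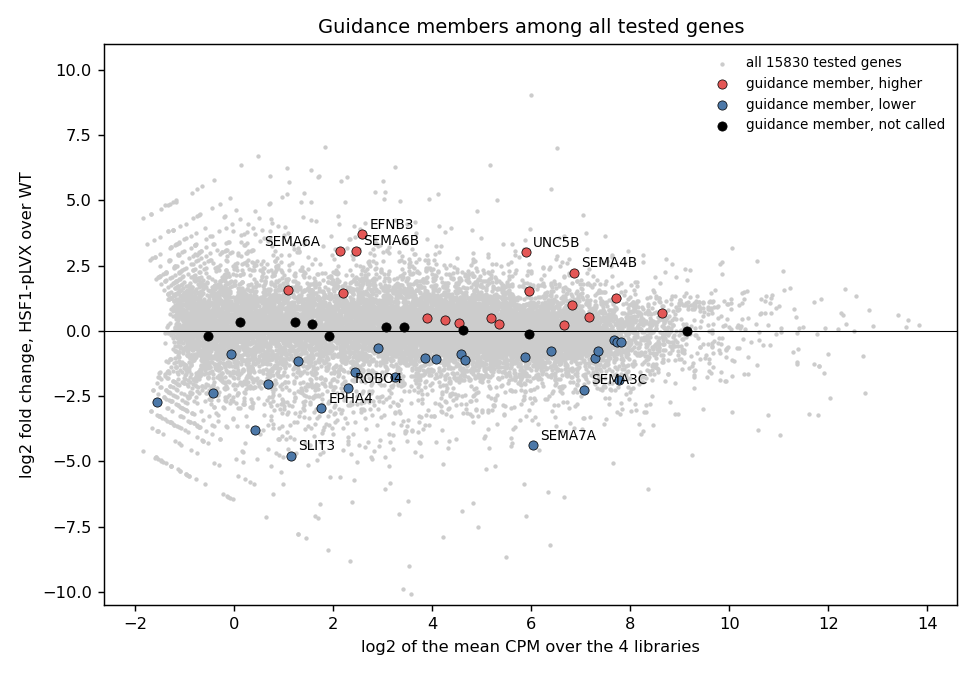
Each grey point is one of the 15830 tested genes, with the log2 of its mean CPM over the 4 libraries on the horizontal axis and its log2 fold change, HSF1-pLVX over wild type, on the vertical axis; 38 genes whose fitted values lie beyond the vertical axis are not drawn. Coloured points are the 54 tested guidance members (18 higher in red, 26 lower in blue, 10 not called in black), which spread over the whole range of expression and reach from SLIT3 at -4.78 to EFNB3 at 3.70.

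Start-site windows of the members were searched for the heat shock element, the inverted repeat of GAA units that HSF1 binds. RefSeq windows of 300 bases (250 before and 50 after a start, GRCh38.p14) were at hand for 61 of the 72 members. The 3-unit element (GAANNTTCNNGAA or TTCNNGAANNTTC) was in none of them and in 0.608% of all 27305 genes with a window. A 2-unit element (GAANNTTC or TTCNNGAA, contained in the 3-unit form, both strands) was in windows of 11 members, or 18.0%, and of 16.2% of all genes. The members with one comprised 1 of 13 called higher and 5 of 24 called lower that had a window. With only the 250 bases before the start it was 7 members, 11.5%, against 14.0% of all genes. The E-box CAGGTG, bound by the SNAI and ZEB repressors, was in windows of 14 members (23.0%) and of 24.1% of all genes. The 250 bases before a start are given, 5′ to 3′ and with matches to the 2-unit element or the E-box in capitals, for the largest rise for which a window was at hand (SEMA4B), for the most abundant member that rose (EFNB1), for EPHA1 as the only higher member with a 2-unit element, and for the largest falls (SEMA7A, SLIT3). SEMA4B has 3 windows and SEMA7A 2, of which the one with most matches is shown, or the first where none has any.
SEMA4B, chr15:90201080-90201329 (+ strand): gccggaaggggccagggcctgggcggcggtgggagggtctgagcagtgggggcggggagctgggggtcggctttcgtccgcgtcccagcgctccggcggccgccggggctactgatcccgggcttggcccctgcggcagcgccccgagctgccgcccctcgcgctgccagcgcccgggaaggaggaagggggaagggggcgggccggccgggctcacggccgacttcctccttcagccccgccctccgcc
EFNB1, chrX:68828771-68829020 (+ strand): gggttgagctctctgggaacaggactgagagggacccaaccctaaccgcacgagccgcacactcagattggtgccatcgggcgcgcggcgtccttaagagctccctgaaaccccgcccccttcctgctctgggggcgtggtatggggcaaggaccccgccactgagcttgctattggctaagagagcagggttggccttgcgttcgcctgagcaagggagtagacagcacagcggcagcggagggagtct
EPHA1, chr7:143408857-143409106 (- strand): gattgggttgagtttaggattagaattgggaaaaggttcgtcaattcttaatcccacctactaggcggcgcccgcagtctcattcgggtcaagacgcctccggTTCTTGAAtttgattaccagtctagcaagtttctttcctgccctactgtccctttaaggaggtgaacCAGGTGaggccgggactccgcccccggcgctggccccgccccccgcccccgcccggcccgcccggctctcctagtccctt
SEMA7A, chr15:74433959-74434208 (- strand): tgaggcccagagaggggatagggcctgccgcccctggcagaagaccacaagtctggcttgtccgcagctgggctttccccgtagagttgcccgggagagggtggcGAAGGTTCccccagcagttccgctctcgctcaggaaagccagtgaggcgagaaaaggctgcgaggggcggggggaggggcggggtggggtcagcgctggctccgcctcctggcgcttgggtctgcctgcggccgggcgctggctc
SLIT3, chr5:169301140-169301389 (- strand): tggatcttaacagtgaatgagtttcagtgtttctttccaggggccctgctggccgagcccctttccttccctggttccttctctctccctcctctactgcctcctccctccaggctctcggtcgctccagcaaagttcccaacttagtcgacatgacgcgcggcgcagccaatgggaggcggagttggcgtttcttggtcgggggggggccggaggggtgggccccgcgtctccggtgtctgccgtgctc
EPHA1 held TTCTTGAA 147 bases and the E-box 80 bases before its start, and SEMA7A held GAAGGTTC 145 bases before its start. The windows of SEMA4B, EFNB1 and SLIT3 shown hold neither. The starts shown for SEMA4B, SEMA7A, EFNB1 and EPHA1 lie inside the genes as annotated in the count table, those of EFNB1 and EPHA1 close to the annotated start. The annotated genes are SEMA4B at 90160604 to 90229679, SEMA7A at 74409289 to 74434467, EFNB1 at 68828997 to 68842147 and EPHA1 at 143390289 to 143408892. Which start these cells use was not tested. A match is a run of letters and not a measured binding site.

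The ephrin-B ligands, which cross the membrane and bind EphB receptors, moved apart. EFNB1 (chromosome X, 68828997 to 68842147; hg38 throughout) was at 127 and 119 CPM in wild type and 295 and 301 CPM in HSF1-pLVX cells, and both HSF1-pLVX libraries were above 2 times either wild type library (log2 fold change 1.27, standard error 0.0898, adjusted p = 1.75e-08). EFNB3 (chromosome 17, 7705202 to 7711378) had 17 and 15 counts in wild type and 255 and 242 in HSF1-pLVX cells, or 0.906 and 0.807 CPM in wild type and 10.2 and 12.2 CPM in HSF1-pLVX cells, a transcript that was scarce in wild type and stayed low in HSF1-pLVX cells (log2 fold change 3.70, standard error 0.226, adjusted p = 3.96e-09). EFNB2 (chromosome 13, 106489731 to 106535114), the partner of EPHB4 in vessels, went the other way, with 103 and 111 CPM in wild type and 68.0 and 57.1 CPM in HSF1-pLVX cells (log2 fold change -0.77, standard error 0.0966, adjusted p = 6.81e-06). Levels of different genes were compared per length, as TPM (a length-corrected share of each library). The ephrin-B genes summed to 187 and 196 TPM in wild type and 329 and 304 TPM in HSF1-pLVX cells. EFNB1 made up 62.2 and 58.9% of the wild type sum and 82.9 and 84.6% of the HSF1-pLVX sum. The share of EFNB2 was 37.3 and 40.7% against 14.2 and 11.9%.

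The ephrin-A ligands are held to the membrane by a lipid anchor and bind EphA receptors. None of them rose. EFNA1 (chromosome 1, 155127460 to 155134857), a main ligand of EPHA2, was at 69.7 and 86.1 CPM in wild type and 40.8 and 36.8 CPM in HSF1-pLVX cells, with no overlap between the variants (log2 fold change between -1.23 and -0.78 at 95% confidence, standard error 0.105 on the log2 scale, adjusted p = 1.12e-06). EFNA4 was also called lower (log2 fold change -0.65, standard error 0.178, adjusted p = 0.00521), but that call was lost without wild type replicate 2 (log2 fold change -0.39, adjusted p = 0.104) and without HSF1-pLVX replicate 2 (-0.71, adjusted p = 0.0858). EFNA5 had a log2 fold change of -0.10 (95% interval -0.28 to 0.08) and EFNA3 of -0.20 (95% interval -0.64 to 0.24), and neither passed the test. EFNA2 was below the filter, with 0 and 1 counts in wild type and 0 and 0 in HSF1-pLVX cells. EFNA4, EFNA3 and EFNA1 lie in this order on chromosome 1, with gaps of 9319 and 39922 bases. A readthrough gene shares 44.7% of the counted bases of EFNA3 and 15.0% of those of EFNA4, and reads there could be left uncounted, so the levels of both are uncertain. The summed level of the ephrin-A genes was 141 and 181 TPM in wild type and 100.2 and 89.7 in HSF1-pLVX cells.

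Of the 7 Eph receptors tested, 6 fell and 1 rose, where 33.2% of all tested genes were lower and 32.7% higher. The 6 include EPHB6, whose call is uncertain (below). EPHA2 (chromosome 1, 16124337 to 16156087), the most abundant Eph receptor of these cells and one with known roles in breast epithelium, was at 223 and 234 CPM in wild type and 186 and 176 CPM in HSF1-pLVX cells (log2 fold change -0.34, standard error 0.0884, adjusted p = 0.0038). This fall was small, and without HSF1-pLVX replicate 2 the adjusted p was 0.0742. EPHB2 (chromosome 1, 22710839 to 22921500), a receptor for ephrin-B ligands, was at 215 and 206 CPM in wild type and 105 and 97.3 CPM in HSF1-pLVX cells (log2 fold change -1.05, standard error 0.0892, adjusted p = 1.18e-07), with the HSF1-pLVX libraries well below both wild type libraries. EPHB3 was at 31.4 and 31.0 CPM in wild type and 16.5 and 17.2 CPM in HSF1-pLVX cells (log2 fold change -0.89, standard error 0.0980, adjusted p = 1.9e-06) and EPHB4 at 250.5 and 238 CPM in wild type and 175 and 188 CPM in HSF1-pLVX cells (log2 fold change -0.43, standard error 0.0896, adjusted p = 0.000729). EPHA4 (chromosome 2, 221418027 to 221574202), which can bind ephrins of both classes, fell from a low level, with 100 and 124 counts in wild type and 23 and 12 in HSF1-pLVX cells (log2 fold change -2.95, standard error 0.277, adjusted p = 3.5e-07). The receptor that rose was EPHA1 (chromosome 7, 143390289 to 143408892), with 30.8 and 29.3 CPM in wild type and 41.7 and 43.8 CPM in HSF1-pLVX cells and log2 fold change 0.51, standard error 0.0898, adjusted p = 0.00018. EPHA2 still made up 88.1 and 88.7% of the EphA sum in wild type and 83.4 and 81.9% in HSF1-pLVX cells. The summed EphB level was 192 and 195 TPM in wild type and 121 and 116 TPM in HSF1-pLVX cells, beside the rise of their EFNB1 ligand. The EphA sum was 185 and 204 TPM against 165 and 146.

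EPHB6, whose kinase domain is inactive, was called lower by a narrow margin (18 and 28 counts in wild type and 16 and 14 in HSF1-pLVX cells, adjusted p = 0.0456). A second copy of EPHB6 on a contig outside the main chromosomes held 28 and 19 counts in wild type and 48 and 24 in HSF1-pLVX cells. With both copies added, an alternative chosen after seeing the data, the log2 fold change went from -0.88 to -0.15 (adjusted p = 0.638). The call of EPHB6 was also lost without wild type replicate 2 (0.345), HSF1-pLVX replicate 1 (0.155) or HSF1-pLVX replicate 2 (0.135), with the adjusted p given in parentheses, and it is therefore uncertain. EPHA10, another receptor without kinase activity, was below the filter with 7 and 13 counts in wild type and 2 and 0 in HSF1-pLVX cells, a ratio of HSF1-pLVX to wild type of 0.0867 (95% exact interval 0.00983 to 0.357, counting error only). EPHA3, EPHA5 and EPHA7 had 0 counts in every library, which allows up to 0.124 to 0.161 CPM (3 counts per library). EPHA6, EPHA8 and EPHB1 had 3 counts or fewer in each library.

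**Figure D2:**
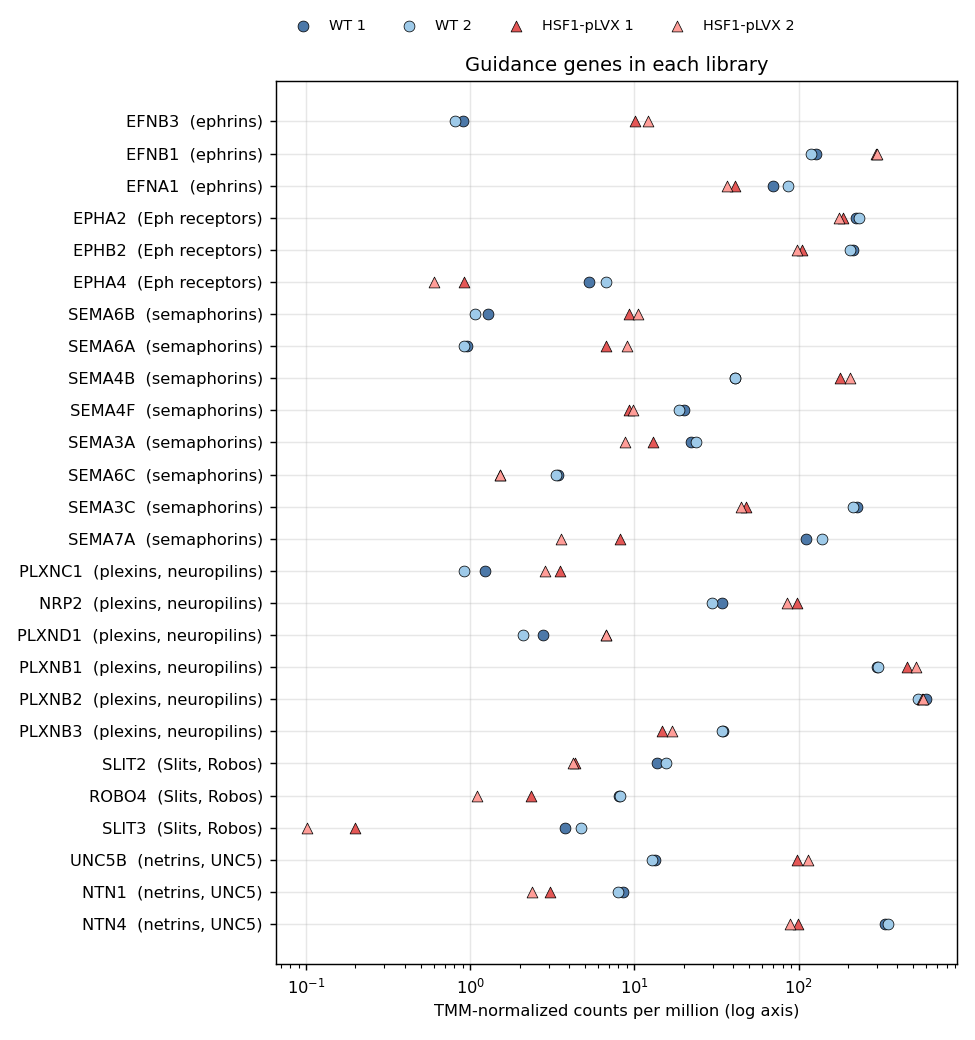
TMM-normalized CPM on a log axis for the 26 guidance genes that met the naming rule or had the highest mean TPM, one row per gene, with circles for the 2 wild type and triangles for the 2 HSF1-pLVX libraries. The circles and triangles are apart for 25 genes and intermingle for PLXNB2, between 532 and 602 CPM.

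Class 3 semaphorins are secreted. SEMA3C (chromosome 7, 80742538 to 80922359) was at 226 and 214 CPM in wild type and 48.0 and 44.6 CPM in HSF1-pLVX cells, so that both HSF1-pLVX libraries held far less than either wild type library (log2 fold change -2.25, standard error 0.0920, adjusted p = 8.43e-11). SEMA3A (chromosome 7, 83955777 to 84492724), the classical repellent that acts through NRP1 and A-type plexins, was at 22.3 and 23.6 CPM in wild type and 12.9 and 8.81 CPM in HSF1-pLVX cells, and its 2 HSF1-pLVX libraries differed from each other by more than those of wild type (log2 fold change -1.06, standard error 0.149, adjusted p = 1.99e-05). SEMA3F (chromosome 3, 50155045 to 50189075), which binds NRP2, rose, with 123 and 112 CPM in wild type and 172 and 171 CPM in HSF1-pLVX cells (log2 fold change 0.54, standard error 0.0887, adjusted p = 8.72e-05). SEMA3E, a ligand that binds PLXND1 without a neuropilin, fell from few counts, with 19 and 28 counts in wild type and 7 and 4 in HSF1-pLVX cells (log2 fold change -2.37, standard error 0.441, adjusted p = 0.00028). SEMA3B, at 8.04 and 7.75 CPM in wild type and 9.28 and 8.36 CPM in HSF1-pLVX cells, did not pass the test (log2 fold change 0.16, 95% interval -0.15 to 0.47). SEMA3D, with 6 and 10 counts in wild type and 2 and 1 in HSF1-pLVX cells, and SEMA3G, with 4 and 1 counts in wild type and 0 and 1 in HSF1-pLVX cells, were below the filter. The leading transcript of the class differed between the variants. SEMA3C was 54.9 and 55.6% of the summed class 3 TPM in wild type and 16.5 and 15.8% in HSF1-pLVX cells, and SEMA3F was 39.0 and 37.7% against 76.9 and 78.8%. Their sum went from 199 and 198 TPM to 142 and 127 TPM. SEMA3F and SEMA3B lie 78483 bases apart on chromosome 3, and the difference between their changes was not tested. SEMA3E and SEMA3A, 306767 bases apart on chromosome 7, both fell.

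The class 4 semaphorins cross the membrane. SEMA4B (chromosome 15, 90160604 to 90229679) was at 40.9 and 40.8 CPM in wild type and 178 and 205 CPM in HSF1-pLVX cells, the largest rise in CPM among the tested semaphorins (log2 fold change 2.23, standard error 0.0978, adjusted p = 1.55e-10). SEMA4D (chromosome 9, 89360787 to 89498130), the ligand of PLXNB1, was at 11.7 and 12.9 CPM in wild type and 18.0 and 16.8 CPM in HSF1-pLVX cells (log2 fold change 0.50, standard error 0.118, adjusted p = 0.00174). SEMA4F (chromosome 2, 74654228 to 74683853) fell, with 19.9 and 18.7 CPM in wild type and 9.28 and 9.77 CPM in HSF1-pLVX cells (log2 fold change -1.02, standard error 0.118, adjusted p = 2.95e-06). SEMA4C, a ligand of PLXNB2, was called higher with a log2 fold change of 0.30 and an adjusted p of 0.0172, but under DESeq2's Wald test the adjusted p was 0.175. It was 0.096 without wild type replicate 1, 0.0874 without HSF1-pLVX replicate 1 and 0.078 without HSF1-pLVX replicate 2. SEMA4A (log2 fold change 0.14, 95% interval -0.18 to 0.47) and SEMA4G (0.26, 95% interval -0.24 to 0.75) did not pass the test. The opposite-strand gene MRPL43 shares 22.3% of the counted bases of SEMA4G, whose value is uncertain because the strand setting of the counting is not given in the sources used here. The class 4 sum was 45.3 and 49.9 TPM in wild type and 106 and 109 in HSF1-pLVX cells, and the share of SEMA4B in it was 39.2 and 37.5% against 73.5 and 75.9%.

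SEMA7A (chromosome 15, 74409289 to 74434467) is a lipid-anchored semaphorin that binds PLXNC1 and beta-1 integrins, and on the log2 scale it had the largest fall among the tested semaphorins. It was at 111 and 140.0 CPM in wild type and 8.17 and 3.57 CPM in HSF1-pLVX cells (log2 fold change -4.37, standard error 0.216, adjusted p = 4.86e-10). The HSF1-pLVX libraries differed by more than 2 times from each other, and the log2 fold change was -5.13 without HSF1-pLVX replicate 1 (adjusted p = 2.52e-15). The class 6 semaphorins, transmembrane ligands of A-type plexins, were low in wild type cells. SEMA6A (chromosome 5, 116443616 to 116574934) had 18 and 17 counts in wild type and 168 and 179 in HSF1-pLVX cells, or 0.959 and 0.915 CPM in wild type and 6.69 and 9.01 CPM in HSF1-pLVX cells (log2 fold change 3.06, standard error 0.257, adjusted p = 1.11e-07). SEMA6B (chromosome 19, 4542593 to 4559808) had 24 and 20 counts in wild type and 232 and 210 in HSF1-pLVX cells, or 1.28 and 1.08 CPM in wild type and 9.24 and 10.6 CPM in HSF1-pLVX cells (log2 fold change 3.07, standard error 0.216, adjusted p = 1.73e-08). SEMA6C (chromosome 1, 151131685 to 151146664) fell, with 3.41 and 3.34 CPM in wild type and 1.51 and 1.51 CPM in HSF1-pLVX cells (log2 fold change -1.16, standard error 0.253, adjusted p = 0.00102). The leading class 6 transcript per length was SEMA6C in wild type, at 60.9 and 63.7% of the sum, and SEMA6B in HSF1-pLVX cells, at 70.5 and 68.4%. The sum itself stayed small, at 2.93 and 2.90 TPM against 9.11 and 9.89. In class 5, SEMA5A did not pass the test (log2 fold change 0.34, 95% interval -0.22 to 0.91). SEMA5B was below the filter, with 0 counts in both wild type libraries and 10 and 12 in HSF1-pLVX cells, at least 3.18-fold higher when wild type is set at 3 counts per library. SEMA6D was also below it, with 0 and 0 counts in wild type and 1 and 4 in HSF1-pLVX cells.

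Plexins are the semaphorin receptors, and PLXNB2 (chromosome 22, 50274979 to 50307627) was abundant per length in both variants. It was at 252 and 236 TPM in wild type and 238 and 225 TPM in HSF1-pLVX cells. PLXNB2 was below EFNB1 in both HSF1-pLVX libraries. It was below NTN4 in wild type replicate 2 and by the wild type mean, but above NTN4 in wild type replicate 1. Its libraries overlapped, with 602 and 532 CPM in wild type and 563 and 577 CPM in HSF1-pLVX cells, and the difference did not pass the test (log2 fold change 0.01, 95% interval -0.21 to 0.22). PLXNB1 (chromosome 3, 48403854 to 48430051), the receptor of SEMA4D, was at 302 and 304 CPM in wild type and 459 and 521 CPM in HSF1-pLVX cells (log2 fold change 0.69, standard error 0.0973, adjusted p = 2.08e-05). PLXNB3 (chromosome X, 153764196 to 153779346) fell, with 34.8 and 34.3 CPM in wild type and 14.8 and 17.1 CPM in HSF1-pLVX cells (log2 fold change -1.12, standard error 0.104, adjusted p = 3.02e-07). Its exons share 20.4% of their bases with SRPK3, a gene with 20 counts or fewer per library. The A-type plexins, which work with neuropilins, split. PLXNA2 (chromosome 1, 208022242 to 208244320) was at 80.0 and 72.6 CPM in wild type and 149.5 and 151 CPM in HSF1-pLVX cells (log2 fold change 0.98, standard error 0.0880, adjusted p = 2.25e-07), while PLXNA1 was at 266 and 249.7 CPM in wild type and 194 and 185 CPM in HSF1-pLVX cells (log2 fold change -0.44, standard error 0.0893, adjusted p = 0.000528) and PLXNA3 at 199 and 210.2 CPM in wild type and 114 and 125 CPM in HSF1-pLVX cells (log2 fold change -0.78, standard error 0.0900, adjusted p = 3.14e-06). PLXNA2 was 12.3 and 11.4% of the A-type sum in wild type and 28.3 and 28.4% in HSF1-pLVX cells. The A-type sum was 143 and 148 TPM against 118 and 109 TPM, and the B-type sum 361 and 352 TPM against 389 and 383.

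PLXND1 and PLXNC1 were scarce and rose. PLXND1 (chromosome 3, 129555175 to 129606818), the receptor of SEMA3E, had 52 and 39 counts in wild type and 168 and 134 in HSF1-pLVX cells (log2 fold change 1.46, standard error 0.209, adjusted p = 2.48e-05). PLXNC1 (chromosome 12, 94148723 to 94307675), the plexin that binds SEMA7A, had 23 and 17 counts in wild type and 88 and 57 in HSF1-pLVX cells (log2 fold change 1.58, standard error 0.288, adjusted p = 0.00023). In both pairs the receptor rose where its ligand fell, but SEMA3E passed the filter through wild type libraries alone, which favours a fall. Other pairs moved together, since SEMA4D and PLXNB1 both rose, as did SEMA3F and NRP2. PLXNA4 was below the filter, with 6 and 10 counts in wild type and 3 and 3 in HSF1-pLVX cells, a ratio of 0.325 (95% exact interval 0.104 to 0.875, counting error only). Among the neuropilins, NRP2 (chromosome 2, 205681990 to 205798133), the co-receptor of SEMA3F, was at 34.0 and 29.8 CPM in wild type and 97.3 and 85.5 CPM in HSF1-pLVX cells (log2 fold change 1.52, standard error 0.0984, adjusted p = 7.21e-09). NRP1, the co-receptor of SEMA3A, was at 38.2 and 35.7 CPM in wild type and 43.8 and 45.3 CPM in HSF1-pLVX cells (log2 fold change 0.27, standard error 0.0880, adjusted p = 0.0156). The call of NRP1 was lost under DESeq2's Wald test (adjusted p = 0.161), without wild type replicate 2 (0.095) and without HSF1-pLVX replicate 2 (0.109). NRP1 was 57.5 and 59.1% of the neuropilin TPM in wild type, and NRP2 was 64.8 and 61.0% in HSF1-pLVX cells. The summed neuropilin level was 17.5 and 16.9 TPM against 33.1 and 28.5.

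**Figure D3:**
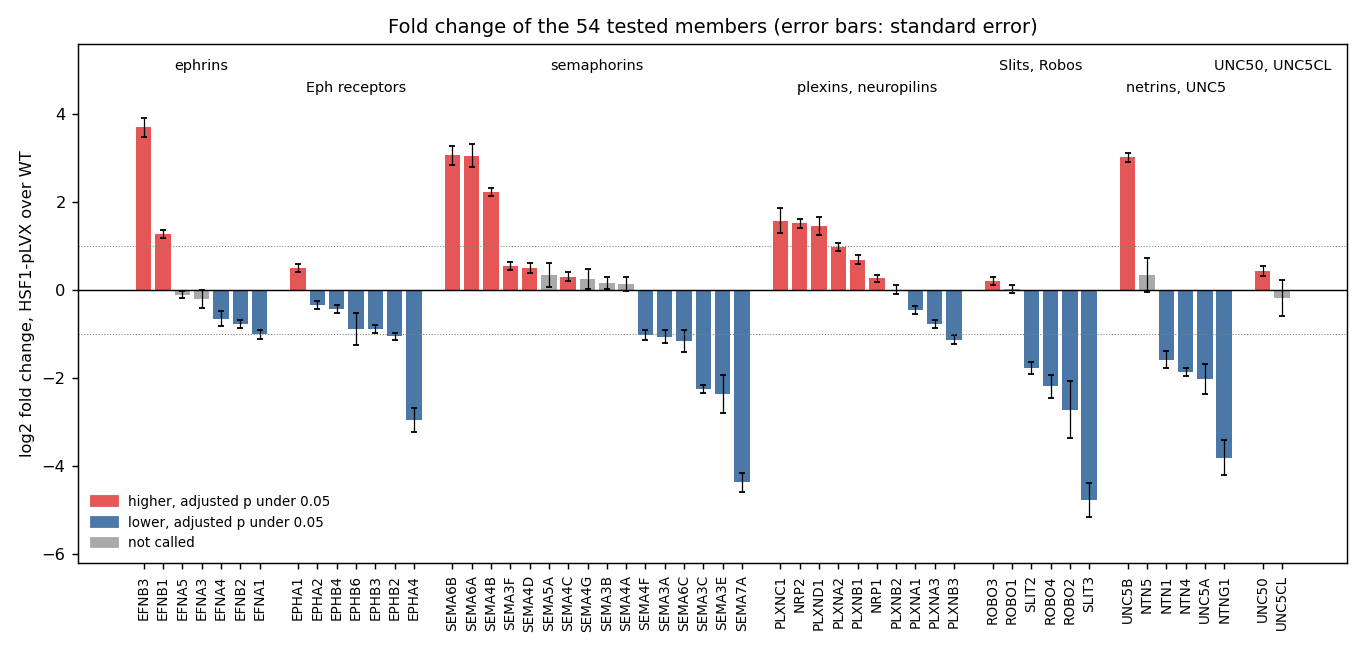
Log2 fold change, HSF1-pLVX over wild type, of the 54 tested members grouped by family, with standard errors as bars; red and blue mark members higher or lower at an adjusted p of 0.05 in edgeR's quasi-likelihood test, grey those not called, and dotted lines 2-fold changes. Of the Eph receptors 6 of 7 are lower and of the plexins and neuropilins 6 of 10 higher, against 33.2% and 32.7% of all tested genes. The calls of EPHB6 and NRP1 among them were lost under several alternatives. Semaphorins run both ways, from SEMA6B at 3.07 to SEMA7A at -4.37.

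Slits are secreted ligands of Robo receptors. SLIT2 (chromosome 4, 20253260 to 20620561) was at 13.7 and 15.6 CPM in wild type and 4.34 and 4.23 CPM in HSF1-pLVX cells (log2 fold change -1.77, standard error 0.148, adjusted p = 1.02e-07). SLIT3 (chromosome 5, 168661733 to 169301129) went nearly to the limit of detection, with 71 and 88 counts in wild type and 5 and 2 in HSF1-pLVX cells (log2 fold change -4.78, standard error 0.394, adjusted p = 8.95e-08), and its log2 fold change was -5.40 without HSF1-pLVX replicate 1 (adjusted p = 7.08e-08). SLIT1 was below the filter, with 1 and 1 counts in wild type and 6 and 0 in HSF1-pLVX cells. The Slit sum was 5.11 and 6.25 TPM in wild type and 1.49 and 1.25 in HSF1-pLVX cells. Their receptors did not follow as a group. ROBO1 (chromosome 3, 78597240 to 79767815), a principal Slit receptor, was at 23.8 and 25.2 CPM in wild type and 24.1 and 25.9 CPM in HSF1-pLVX cells and did not pass the test (log2 fold change 0.03, 95% interval -0.18 to 0.24). ROBO3 (chromosome 11, 124865386 to 124881470), which in mammals binds Slits poorly, was the most abundant Robo per length and was at 89.6 and 97.4 CPM in wild type and 106 and 110.0 CPM in HSF1-pLVX cells (log2 fold change 0.21, standard error 0.0858, adjusted p = 0.0445). That call was lost under DESeq2's Wald test (adjusted p = 0.182), with DESeq2's size factors in edgeR (0.0637), without a low-count filter (0.125) and with 10 counts required in every library of a group (0.055). It was also lost without wild type replicate 1 (0.18), HSF1-pLVX replicate 1 (0.0757) or HSF1-pLVX replicate 2 (0.178).

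ROBO4 (chromosome 11, 124883691 to 124898500), known from vascular endothelium, was at 8.04 and 8.13 CPM in wild type and 2.35 and 1.11 CPM in HSF1-pLVX cells (log2 fold change -2.19, standard error 0.261, adjusted p = 4.08e-06), and at a log2 fold change of -2.87 without HSF1-pLVX replicate 1 (adjusted p = 4.96e-08). It lies 2221 bases from ROBO3 on the other strand, so the neighbours moved in opposite directions in this test, the rise of ROBO3 being the uncertain one. ROBO2 fell from few counts, with 10 and 12 counts in wild type and 1 and 3 in HSF1-pLVX cells (log2 fold change -2.72, standard error 0.650, adjusted p = 0.00199). The fold of ROBO2 depended on single libraries, with a log2 fold change of -1.96 without HSF1-pLVX replicate 1 (adjusted p = 0.0274) and -3.88 without HSF1-pLVX replicate 2 (0.0131), and under DESeq2's Wald test its adjusted p was 0.0775. The Robo sum was 48.9 and 55.8 TPM in wild type and 54.1 and 51.5 TPM in HSF1-pLVX cells, which overlap.

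Among the netrins, NTN4 (chromosome 12, 95657807 to 95791152), a netrin that binds laminins in basement membranes, had the highest mean level per length of the members in wild type cells but not in HSF1-pLVX cells, at 245 and 270.2 TPM in wild type and 73.3 and 59.9 TPM in HSF1-pLVX cells. Its level was 336 and 350.4 CPM in wild type and 99.7 and 88.3 CPM in HSF1-pLVX cells (log2 fold change -1.87, standard error 0.0963, adjusted p = 7.2e-10). NTN1 (chromosome 17, 9021542 to 9244000), the ligand of DCC and UNC5 receptors, was at 8.47 and 7.91 CPM in wild type and 3.07 and 2.37 CPM in HSF1-pLVX cells (log2 fold change -1.58, standard error 0.195, adjusted p = 5.91e-06). NTN5 did not pass the test (log2 fold change 0.35, 95% interval -0.48 to 1.18), and NTN3 was below the filter, with 3 and 4 counts in wild type and 3 and 7 in HSF1-pLVX cells. NTN4 made up 95% or more of the netrin sum in every library, and this sum was 250.4 and 276 TPM in wild type and 75.8 and 62.9 in HSF1-pLVX cells. NTNG1, a lipid-anchored netrin-G, fell, with 41 and 52 counts in wild type and 5 and 3 in HSF1-pLVX cells (log2 fold change -3.81, standard error 0.407, adjusted p = 1.36e-06). NTNG2 was below the filter, with 5 and 10 counts in wild type and 5 and 4 in HSF1-pLVX cells, and the interval of its ratio spanned 1 (0.520, 95% exact interval 0.201 to 1.27, counting error only).

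The UNC5 receptors mediate repulsion by netrins and can promote cell death in the absence of the ligand. UNC5B (chromosome 10, 71212570 to 71302864) was at 13.4 and 12.8 CPM in wild type and 98.6 and 114 CPM in HSF1-pLVX cells, and its 2 HSF1-pLVX libraries were far above either wild type library (log2 fold change 3.02, standard error 0.104, adjusted p = 2.09e-11). UNC5A (chromosome 5, 176810477 to 176880895) fell, with 54 and 43 counts in wild type and 20 and 9 in HSF1-pLVX cells (log2 fold change -2.02, standard error 0.333, adjusted p = 9.59e-05). UNC5C had 3 counts or fewer in every library, and UNC5D had 0. The UNC5 sum was 7.99 and 7.77 TPM in wild type and 44.7 and 47.2 in HSF1-pLVX cells, and UNC5B was 74.3 and 77.4% of it against 98.7 and 99.3%. NTN4 and NTN1 were lower where this receptor was higher. Of the members by name only, UNC50, a Golgi membrane protein, was at 15.2 and 17.7 CPM in wild type and 22.9 and 21.3 CPM in HSF1-pLVX cells (log2 fold change 0.43, standard error 0.113, adjusted p = 0.00382), a call lost under DESeq2's Wald test (adjusted p = 0.0548), and UNC5CL did not pass the test (log2 fold change -0.18, 95% interval -1.05 to 0.69). OARD1, on the same strand, shares 23.8% of the counted bases of UNC5CL, which makes its counts uncertain.

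**Figure D4:**
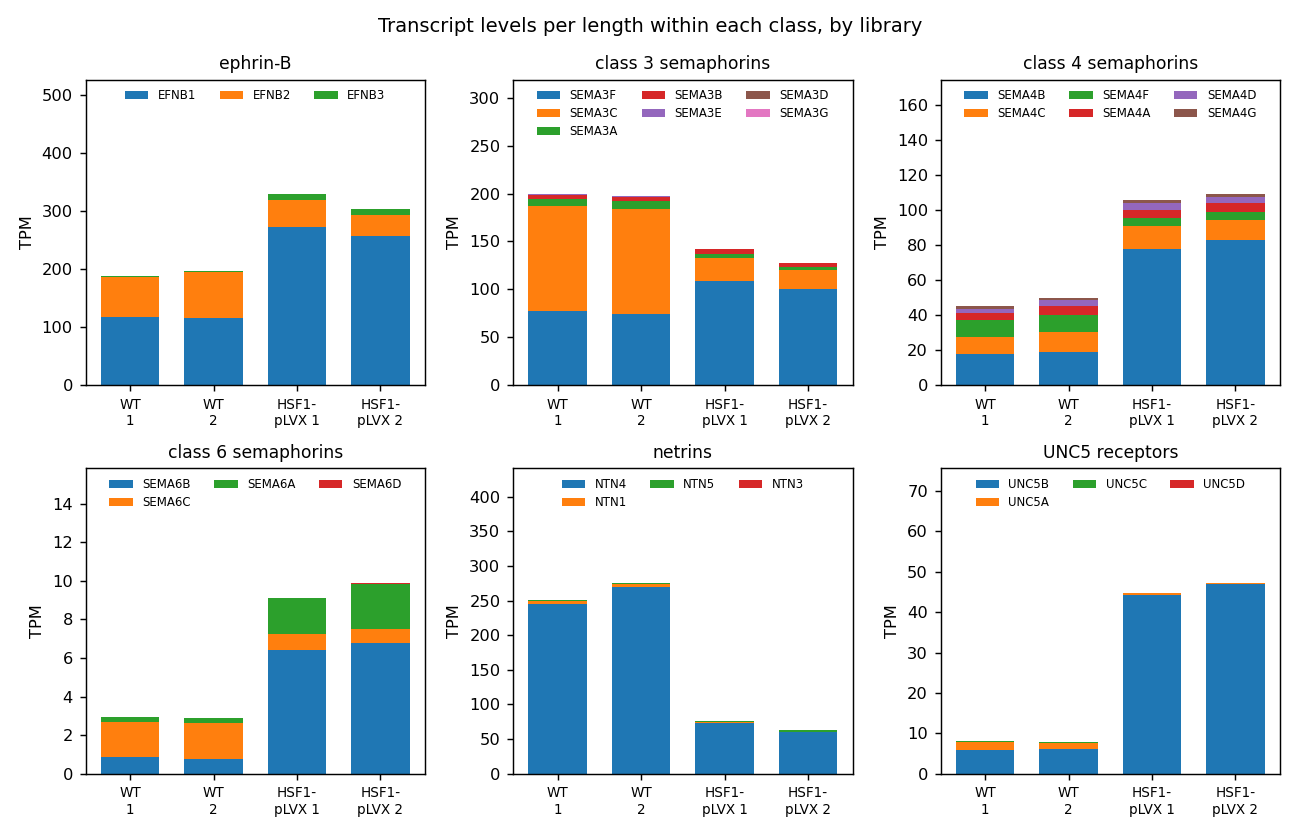
Stacked TPM of the members of 6 classes in each of the 4 libraries, with the vertical axis starting at 0 and differing between panels. In HSF1-pLVX cells EFNB1, SEMA3F, SEMA4B, SEMA6B and UNC5B lead their classes, SEMA3C and SEMA6C led in wild type cells, and the netrin bars, nearly all NTN4, fall from 250.4 and 276 TPM to 75.8 and 62.9 TPM.

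Genes that work with the members but lie outside the families were taken from 2 lists. Of 23 co-receptors and other cues, 18 were tested, 5 rose and 8 fell, or 27.8% and 44.4%, against 32.7% and 33.2% of all tested genes. The number that fell was 4 without HSF1-pLVX replicate 2. Of those that rose, FLRT1 passed the filter through HSF1-pLVX libraries alone. DCC, the classical netrin receptor, had 2 and 0 counts in wild type and 1 and 0 in HSF1-pLVX cells and was not tested, while NEO1, the related neogenin, was at 20.8 and 18.6 CPM in wild type and 28.2 and 32.1 CPM in HSF1-pLVX cells (log2 fold change 0.61, standard error 0.107, adjusted p = 0.000154). L1CAM, an adhesion molecule that associates with NRP1 in SEMA3A signalling, was at 92.8 and 91.2 CPM in wild type and 4.78 and 3.72 CPM in HSF1-pLVX cells (log2 fold change -4.42, standard error 0.118, adjusted p = 2.57e-12). RGMA, a ligand of neogenin, was at 17.6 and 14.9 CPM in wild type and 3.03 and 1.71 CPM in HSF1-pLVX cells (log2 fold change -2.74, standard error 0.204, adjusted p = 3.02e-08). RTN4R, the Nogo receptor, had a log2 fold change of -1.19 (adjusted p = 6.55e-06). KDR, a vascular endothelial growth factor receptor that pairs with neuropilins, rose, with 35 and 27 counts in wild type and 309 and 256 in HSF1-pLVX cells (log2 fold change 2.92, standard error 0.187, adjusted p = 6.42e-09).

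Of 54 signal transducers below these receptors, 51 were tested, of which 35 fell and 5 rose, or 68.6% and 9.80%, against 33.2% and 32.7% of all tested genes. Their median log2 fold change was -0.53, beside 0.02 for all tested genes. The list of transducers was chosen with earlier results of these data known. At least 2-fold changes were 13 downwards and 2 upwards, where 14.0% and 14.9% of all tested genes changed so. DPYSL3 and RND1, both among those that fell, met the low-count cutoff in both libraries for wild type only, which favours that direction. DPYSL3, a collapsin response mediator protein downstream of semaphorins, had 323 and 290 counts in wild type and 6 and 5 in HSF1-pLVX cells (log2 fold change -6.07, standard error 0.241, adjusted p = 6.55e-11). ABL2, a kinase that works below Robo receptors, was at 126 and 132 CPM in wild type and 42.6 and 35.3 CPM in HSF1-pLVX cells (log2 fold change -1.72, standard error 0.0988, adjusted p = 2.07e-09). KALRN, a guanine nucleotide exchange factor that acts below EphB receptors, was at 3.04 and 3.71 CPM in wild type and 1.16 and 0.554 CPM in HSF1-pLVX cells (log2 fold change -1.94, standard error 0.325, adjusted p = 0.000109). In the other direction, SRGAP3, one of the GTPase-activating proteins that bind Robo receptors, had 437 and 464 counts in wild type and 3155 and 2538 in HSF1-pLVX cells (log2 fold change 2.39, standard error 0.0892, adjusted p = 3.78e-11), while its relative SRGAP2 fell (log2 fold change -0.82) and SRGAP1 rose (0.38). VAV3, an exchange factor recruited by Eph receptors, was at 10.6 and 9.20 CPM in wild type and 36.2 and 37.5 CPM in HSF1-pLVX cells (log2 fold change 1.89, standard error 0.110, adjusted p = 2.33e-09). Of the 4 transducers most abundant per length, RHOD (log2 fold change -1.35), CFL1 (-1.10) and RHOA (-0.72) fell, and RAC1 did not pass the test (-0.06, adjusted p = 0.58). RND3, RND1 and FARP1, which bind plexins or act beside them, fell by 1.66, 1.79 and 1.31 on the log2 scale. SRGAP1, SRGAP2, NEO1, RHOD, CFL1, RHOA, RAC1, FLRT1, RND1, RND3 and FARP1 were named after their values were seen.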

How the data were processed

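The authors aligned paired-end reads to hg38 with HISAT2 2.0.5, processed them with SAMtools 1.13 and counted them per gene with featureCounts 1.6.5, and the table of deposited counts lists 63856 GENCODE release 26 genes. The strand, overlap and multi-mapping settings are not given in the sources used here. A further deposited table gives DESeq2 1.32.0 normalized values on a scale close to log2. These log2 values were used for the member symbols, for 1 alternative and to check the join, since DESeq2's variance-stabilizing transformation of the counts gave each member's row to within 5.8e-05. Symbols were matched to Ensembl identifiers through GENCODE release 44.

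The test was that of edgeR 4.0.16, run on the counts under R 4.3.3 (TMM, filterByExpr with a count minimum of 10, quasi-likelihood test without a replicate block, Benjamini-Hochberg adjustment over 15830 genes, with calls at 0.05). The standard error is the log2 fold change divided by the square root of the F statistic, and intervals use its t quantile. With 2 libraries a group, the smallest two-sided p of an exact permutation test is 0.33, so the test borrows spread across genes. The common biological coefficient of variation was 0.0738. Replicate pairs differed by more than sampling noise (chi-square per degree of freedom 6.62 for wild type, 8.04 for HSF1-pLVX). TPM came from the counts and the lengths in the count table. For every class summed, the ratio of HSF1-pLVX to wild type was lower in TPM than per length on TMM-scaled library sizes. It was 1.01 against 1.07 for the Robo genes and 1.08 against 1.15 for the B-type plexins, so small differences between class sums depend on the scale. The test was tried on simulated counts with known changes. Members and lists were chosen with earlier results of these data known. Full values are given for members called, at least 2-fold changed and moving one way in both replicate pairs with 50 or more counts in each library of the higher variant, for the 5 of highest mean TPM, and for up to 5 other guidance genes per list under the same rule. Further members and partners are named where described. Alternatives were other normalizations, filters and tests, the replicate block, each library left out and a 2-fold ratio rule.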

Additional observations from a re-analysis of the deposited data

How the results depend on the processing

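With a ratio beyond 2-fold in both replicate pairs as the only criterion, 1830 of all genes were higher and 1909 lower against 5175 and 5253, 9 guidance members were higher and 15 lower, 2 and 3 co-receptors and cues, and 2 and 11 transducers, since that rule asks for a larger change. With each library left out in turn, where the lone library of a variant is assumed to vary like the other variant, the co-receptors and cues called lower ranged from 4 to 9, members called higher from 15 to 17 and members called lower from 23 to 26. Under the other normalizations, filters and tests these counts stayed within 1.5 times. No called member changed sign under the alternatives run on the counts. PLXNB2, which was not called, had log2 fold changes of -0.0057 with DESeq2's size factors, -0.0045 with the stricter filter and -0.022 under DESeq2's Wald test, and from -0.078 to 0.12 with a library left out, among them -0.0031 without HSF1-pLVX replicate 2. DESeq2's Wald test lost 6 of 44 member calls, and the cause was not tested. Same-numbered libraries were not paired, as the correlation of their deviations came to -0.015 for the tested genes as a whole and -0.11 for the 9672 above 8 CPM. With the replicate block, 17 members were higher and 25 lower, with ROBO3 and EPHB6 no longer called and estimated prior degrees of freedom that were infinite. The crossed pairing, added after seeing the data, gave 18 and 26. Depth limits the 18 members below the filter, which were not tested there. Without the filter, 18 members were called higher and 28 lower.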
